A study of Mus musculus with 18 samples.

Results

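Agmo, the alkylglycerol monooxygenase gene, and 7 genes of the 2 pathways that its enzyme joins were followed in microglia of the medial prefrontal cortex (mPFC). The 8 members were Agmo, Agps, Gnpat, Far1, Gch1, Pts, Spr and Qdpr, and each was found by its symbol among the 22428 genes of the deposited expression table. They were selected on the log2 CPM of these same libraries, in which the Agmo difference between groups was already known, and on their places in the pathways, so their levels and differences are given below as a description. Where calls among them are counted, they stand beside those over all genes and support nothing. Cells positive for CD45, CD11b and P2ry12 were collected by flow cytometric sorting (FACS) at postnatal day 51, and their RNA was sequenced in 18 libraries. The groups were wild-type mice given vehicle (WT-Veh, n = 6), wild-type mice given Δ9-tetrahydrocannabinol (WT-THC, n = 4), 16p11.2 duplication mice given vehicle (16p11dup-Veh, n = 4) and 16p11.2 duplication mice given THC (16p11dup-THC, n = 4). Daily subcutaneous THC at 8 mg/kg ran from postnatal day 30 until day 51, and the controls received the Cremophor and saline vehicle over the same days. All groups were on the C57BL6/J background. The duplication is carried in every cell of the animal, not in microglia alone. The sex of these mice, and whether each library came from 1 mouse, are not given in the sources used here, so the spread between libraries may be partly technical.

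Ether lipids differ from the usual glycerolipids in that one of their chains is joined to glycerol by an ether bond instead of an ester bond, and plasmalogens are the ether lipids most abundant in brain. Their synthesis starts in peroxisomes with GNPAT, which acylates dihydroxyacetone phosphate, and AGPS, which replaces the acyl chain by a fatty alcohol supplied by the reductase FAR1. AGMO runs the other way and cleaves the ether bond of alkylglycerols, including lyso-platelet-activating factor, and it requires tetrahydrobiopterin. This cofactor is made from GTP by GCH1, PTS and SPR in sequence, is regenerated by QDPR, and is also used by the nitric oxide synthases and the aromatic amino acid hydroxylases. AGMO has been studied in mouse macrophages, in which its activity changes with the activation state of the cell.

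The promoter windows of Agmo and of Agps are shown because the 2 differ in base composition. Each covers 250 bases before and 50 bases after a transcript start, is taken from RefSeq on GRCm38.p6, and is printed 5′ to 3′ with CG dinucleotides in capitals. The Agmo window is chr12:37241389-37241688 on the plus strand and the Agps window is chr2:75831927-75832226 on the plus strand.
Agmo: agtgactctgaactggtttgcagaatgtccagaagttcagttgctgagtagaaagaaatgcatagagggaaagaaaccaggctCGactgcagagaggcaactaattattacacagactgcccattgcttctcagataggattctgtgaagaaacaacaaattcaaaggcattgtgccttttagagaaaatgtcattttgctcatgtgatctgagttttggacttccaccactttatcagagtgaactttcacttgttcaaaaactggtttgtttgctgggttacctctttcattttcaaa
Agps: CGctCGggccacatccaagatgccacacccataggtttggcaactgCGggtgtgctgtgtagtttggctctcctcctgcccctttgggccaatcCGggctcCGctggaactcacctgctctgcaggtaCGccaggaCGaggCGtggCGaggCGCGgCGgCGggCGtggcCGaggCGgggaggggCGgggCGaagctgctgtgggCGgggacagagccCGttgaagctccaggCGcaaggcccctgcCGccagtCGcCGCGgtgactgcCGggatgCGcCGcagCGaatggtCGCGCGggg
The Agmo window held 1 CG dinucleotide and 39.7% G and C, whereas the Agps window held 32 and 71.0%. All 8 members had a RefSeq window, and those of the other 6 held 16 to 33 CG dinucleotides and 60.3 to 68.7% G and C. Over 32851 mouse windows of the same length the medians were 7 CG dinucleotides and 52.7%, and 10.1% of the windows were as low in G and C as that of Agmo or lower. The TATA box (TATAAA), the CCAAT box, the GC box (GGGCGG) and the PU.1 core (GAGGAA), which do not overlap one another, were searched on both strands, and none was found in the Agmo window. Of all windows, 13.6%, 37.4%, 35.7% and 28.3% held these 4 motifs, respectively. The GC box was present in the windows of the other 7 members. These matches describe the letters alone, and no binding or promoter activity was measured.

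Agmo lies on chromosome 12 (37241641 to 37582202 of GRCm38, plus strand), a span of 340.6 kb. An antisense gene, Gm34408, and a processed pseudogene, Gm48660, overlap this span, and the reads were counted without regard to strand. Gnpat (chromosome 8, 124863033 to 124890057) is overlapped by the protein-coding gene 2810004N23Rik on the opposite strand. The spans of Far1 (chromosome 7, 113513834 to 113571511), Qdpr (chromosome 5, 45434021 to 45450236) and Gch1 (chromosome 14, 47153895 to 47189413) are overlapped by noncoding genes or pseudogenes. No other gene overlaps Agps (chromosome 2, 75832177 to 75931350), Pts (chromosome 9, 50521617 to 50528724) or Spr (chromosome 6, 85130176 to 85137766). In these libraries the counts of the 8 members came out as whole numbers within 0.01, with no sign of fractional assignment.

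Between 7045444 and 15459286 counts per library were recovered from the deposited log2 CPM, in which CPM is a count scaled to the size of its library. The 9 microglial markers summed to 17905 to 35794 CPM per library, with Csf1r at a median of 7002 CPM. Markers of neurons reached at most 215.3 CPM in sum, those of astrocytes 319.9 CPM, of the oligodendrocyte lineage 194.1 CPM, of vessels 228.7 CPM, of border macrophages 183.3 CPM and of monocytes and neutrophils 260.1 CPM. Tubb3 of neurons, Cldn5 of vessels and Ly6c2 and Plac8 of monocytes had no count in any library. Of 25 genes of the 16p11.2 region, 22 had a count and 12 of these were higher in 16p11dup-Veh than in WT-Veh, with a median log2 difference of 0.14. In 16p11dup-THC 11 of the 22 were higher than in WT-Veh, with a median of -0.17, and 10 were higher than in WT-THC, with a median of -0.06. A rise of these genes was thus not seen in 16p11dup-THC, and the genotype of each library rests on its label. A difference in a transcript cannot be told apart here from a difference in the share of cells that express it.

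Agmo was counted in every library and stood apart in 16p11dup-THC. Its level was 26.5 ± 13.8 CPM (SD, n = 6) in WT-Veh, where the lowest, median and highest libraries had 10.6, 26.1 and 48.6 CPM. The 4 WT-THC libraries had 39.7, 24.7, 57.4 and 23.7 CPM, with a mean of 36.4 ± 15.8 (SD, n = 4). In 16p11dup-Veh the values were 37.2, 28.3, 31.0 and 15.7 CPM, with a mean of 28.0 ± 9.02 (SD, n = 4). These 3 groups overlapped throughout their ranges. In 16p11dup-THC the values were 196.4, 300.3, 79.6 and 131.5 CPM, with a mean of 177.0 ± 95.1 (SD, n = 4). The order of the group means was therefore WT-Veh, 16p11dup-Veh, WT-THC and 16p11dup-THC, and the first 3 did not differ beyond their spread.

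The lowest 16p11dup-THC library had an Agmo level of 6.31 on the log2 CPM scale and the highest of the other 14 libraries, of WT-THC, had 5.84. This gap of 0.47 corresponds to a 1.39-fold difference. Of 13964 genes with a count, 4, or 0.0286%, lay higher in the 4 libraries of 16p11dup-THC than in the other 14. They were Agmo, Tlr2, Zfyve20 and 9330151L19Rik, of which the last 2 are named here after their values were seen. Some of so many genes would be expected to lie apart for any 4 libraries picked without regard to group. The share is therefore no measure of rarity. The mean Agmo CPM in 16p11dup-THC was 6.69 times that in WT-Veh, 4.87 times that in WT-THC and 6.31 times that in 16p11dup-Veh. Without the highest library, replicate 18, these ratios were 5.13, 3.73 and 4.84.

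In the fit, the Agmo level in 16p11dup-THC exceeded that in WT-Veh by 2.71 on the log2 scale (SE 0.47). It exceeded WT-THC by 2.44 (SE 0.52) and 16p11dup-Veh by 2.79 (SE 0.52). The difference between WT-THC and WT-Veh was 0.27 (SE 0.45) and that between 16p11dup-Veh and WT-Veh was -0.07 (SE 0.46), both smaller than their errors. The difference between the THC effects of the 2 genotypes was 2.52 (SE 0.70). Comparisons that share a group share its libraries and are not independent. The microglial markers summed to 22328 to 35794 CPM in 16p11dup-THC and to 17905 to 35610 CPM in the other groups, and the mapped share of reads was 73.5 to 78.9% against 72.5 to 81.8%. Neuronal markers summed to 28.8 to 215.3 CPM in 16p11dup-THC and to 8.40 to 140.6 CPM in the other groups, and against 16p11dup-Veh 1 of the 7 neuronal markers tested was higher at an unadjusted p under 0.05. Of the 9 microglial markers, 3 were higher at that p in 16p11dup-THC against WT-Veh and 3 against 16p11dup-Veh, and 1 was lower against WT-THC. Of the 6 border macrophage markers, 5, 6 and 5 were higher in 16p11dup-THC than in WT-Veh, WT-THC and 16p11dup-Veh, with median log2 differences of 1.39, 2.06 and 0.64, and 1 of them passed that p, against WT-Veh. Their sum was 3.95 to 87.8 CPM in 16p11dup-THC and 0 to 183.3 CPM in the other groups. Of the 7 oligodendrocyte lineage markers, 1 was higher at that p against WT-Veh and 1 against 16p11dup-Veh. The part of these markers in the Agmo difference was not tested.

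**Figure D1:**
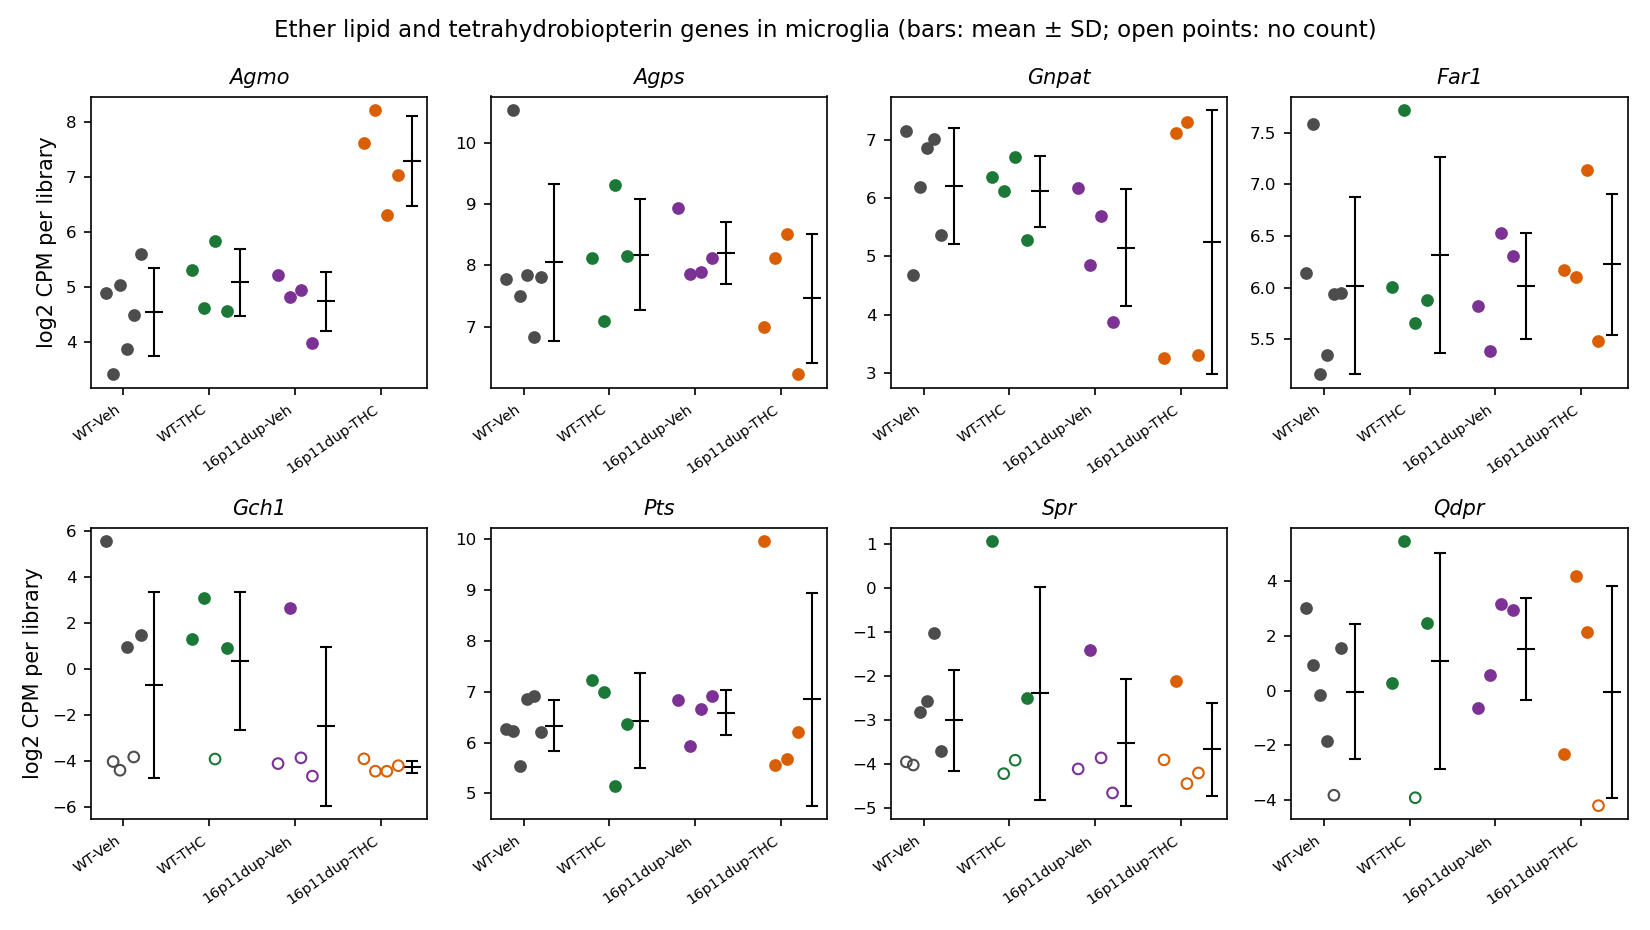
Points give the log2 CPM (vertical axis) of each of the 8 genes in each library, by group (horizontal axis), with the mean ± SD beside them, and open points mark libraries with no count of the gene. The 4 Agmo points of 16p11dup-THC lie at 6.31 and above, higher than the other 14 points, while for Gch1 the 4 points of that group are all open.

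The 3 genes of ether lipid synthesis were counted in every library. Agps had the widest spread of the 3 among WT-Veh libraries. Its lowest, median and highest WT-Veh libraries had 114.1, 222.0 and 1485 CPM. The highest of these was replicate 2, with 12060 counts. WT-THC libraries had 279.9, 137.3, 633.9 and 285.3 CPM of Agps. In 16p11dup-Veh Agps had 487.7, 231.6, 238.2 and 279.9 CPM, and in 16p11dup-THC it had 127.3, 280.0, 366.7 and 74.8 CPM. The ranges of the 4 groups overlapped. The fitted difference between 16p11dup-THC and WT-Veh was -0.44 on the log2 scale (SE 0.62), within its error.

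Gnpat split the 16p11dup-THC libraries into 2 low and 2 high ones. They had 9.49, 139.7, 157.7 and 9.78 CPM, of which the first and last were the lowest of the 18 libraries and 157.7 was the highest. In WT-Veh the lowest, median and highest values of Gnpat were 25.5, 94.8 and 142.2 CPM. WT-THC had 82.7, 70.0, 104.0 and 38.8 CPM. The 16p11dup-Veh libraries had 72.1, 29.0, 51.9 and 14.6 CPM, a mean of 41.9 ± 25.3 (SD, n = 4) against 87.9 ± 48.5 (SD, n = 6) in WT-Veh. The log2 difference between 16p11dup-Veh and WT-Veh was -1.09 (SE 0.82), and the ranges overlapped. The same 2 libraries that were low in Gnpat, replicates 17 and 21, were also the lowest of their group in Agps.

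Far1 varied least between libraries, with a highest level of 5.94 times its lowest, against 16.6 to 28.4 times for the other 4 members counted in every library. It ranged from 35.6 to 191.7 CPM in WT-Veh, from 50.2 to 211.5 CPM in WT-THC, from 41.6 to 92.6 CPM in 16p11dup-Veh and from 44.7 to 141.0 CPM in 16p11dup-THC. Group means lay between 67.5 and 96.3 CPM. The 5 fitted differences were between -0.15 and 0.35 on the log2 scale, each smaller than its SE.

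The genes of tetrahydrobiopterin synthesis were unequal in level. Gch1, which encodes the first and usually rate-limiting enzyme, was counted in 7 of the 18 libraries. In WT-Veh it had 367, 17 and 54 counts in 3 libraries and none in the other 3. WT-THC libraries had 33, 80, 0 and 26 counts, and 16p11dup-Veh libraries had 0, 92, 0 and 0. No 16p11dup-THC library had a Gch1 count, where 3 counts, the limit that a count of 0 allows, would be 0.32 CPM on average. Against this floor of 3 counts per library, the mean of 8.70 CPM in WT-Veh was at least 27.2-fold higher, but without replicate 1 it was at least 2.94-fold higher. The mean of 3.21 CPM in WT-THC was at least 10.1-fold higher, or at least 4.44-fold without replicate 8. In 16p11dup-Veh the mean of 1.56 CPM rested on replicate 13, since the other 3 libraries had no count. Gch1 was thus without a count in 7 of 8 16p11dup libraries and in 4 of 10 wild-type libraries. Each library held counts for 8778 to 12350 of the 13964 genes with a count, so libraries without a count of a given gene are common. How many genes are split in this way by genotype was not counted, and nothing is read from the split. The floors of 3 counts cover counting error only.

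Pts, whose product makes 6-pyruvoyl-tetrahydropterin, had a mean of 293.7 ± 472.7 CPM (SD, n = 4) in 16p11dup-THC, the highest of the group means. That mean came from 1 library. The values were 1002 CPM in replicate 17, with 7498 counts, and 47.3, 50.9 and 74.2 CPM in the other 3. Without replicate 17 the mean was 57.5 CPM, 0.679 times that of WT-Veh instead of 3.47 times. Pts had 46.5 to 121.0 CPM in WT-Veh, 35.5 to 150.2 CPM in WT-THC and 61.2 to 121.4 CPM in 16p11dup-Veh. The fitted log2 difference between 16p11dup-THC and WT-Veh, in which this library counts as 1 of 4 on the log scale, was 0.40 (SE 0.69).

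Spr, which encodes sepiapterin reductase, was at the edge of detection. It had 1 to 5 counts in 7 libraries, 28 counts in 1 WT-THC library and none in the other 10. Qdpr, the gene of the recycling enzyme, was counted in 15 libraries and its values ranged from 0 to 43.9 CPM around a median of 1.64. In WT-Veh its lowest, median and highest values were 0, 1.35 and 8.02 CPM. WT-THC had 1.18, 43.9, 0 and 5.48 CPM, 16p11dup-Veh had 0.579, 1.43, 8.95 and 7.62 CPM, and 16p11dup-THC had 0.134, 18.2, 4.32 and 0 CPM. The groups overlapped for both genes. Their fitted log2 differences in the 5 comparisons lay between -1.23 and 1.08, with SEs of 0.81 to 2.10.

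Per length, the order of the members was led by ether lipid synthesis. Over the 18 libraries the median level per kilobase of exon (GENCODE M21) was 24.9 CPM for Agps, 19.8 for Gnpat, 13.03 for Pts, 7.82 for Far1, 4.98 for Agmo and 0.92 for Qdpr, and it was 0 for Gch1 and Spr. In 16p11dup-THC the mean level of Agmo per kilobase was 27.7 CPM, against 22.5 for Agps and 22.1 for Gnpat. In WT-Veh it was 4.13 CPM for Agmo, against 43.4 and 24.5 for Agps and Gnpat. The WT-Veh mean of Agps includes its library of 1485 CPM. Without its highest library, replicate 18, a value added after seeing the data, the 16p11dup-THC mean of Agmo was 21.2 CPM per kilobase. Without their highest library, replicate 20, the means of Agps and Gnpat in that group were 17.1 and 14.8. Agmo was thus below both when only Agmo lost its highest library, and above both when each gene did.

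**Figure D2:**
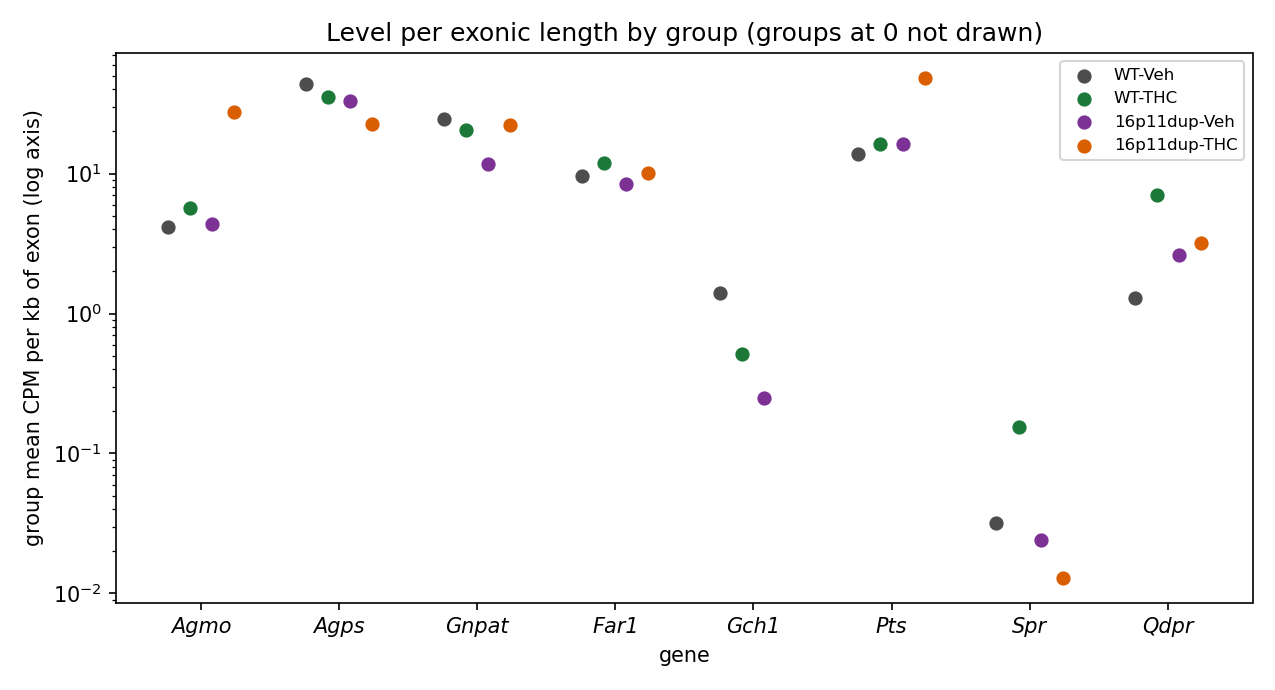
Points give the group mean level of each of the 8 genes in CPM per kilobase of exon (vertical log axis), coloured by group. Agmo rises from 4.13 in WT-Veh to 27.7 in 16p11dup-THC, while the Pts point of 16p11dup-THC at 48.2 rests on 1 library, and Gch1 has no point in that group because its mean is 0.

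With limma, none of the 8 members passed an FDR (Benjamini-Hochberg over 22428 genes) of 0.10 in any comparison. Of 13964 genes with a count, the share that did was 0.0143% for WT-THC against WT-Veh, 0.00716% for 16p11dup-THC against WT-Veh and likewise 0.00716% against WT-THC, and 0% for the other 3 comparisons, including the interaction. At an unadjusted p under 0.05 no member was called in WT-THC against WT-Veh (4.07% of all genes) or in 16p11dup-Veh against WT-Veh (3.64%). Agmo was the 1 member called in 16p11dup-THC against WT-Veh (5.53%), WT-THC (5.8%) and 16p11dup-Veh (5.16%), and in the interaction (4.58%). DESeq2 called Agmo and Gch1 at an FDR under 0.10 in each of the 3 comparisons of 16p11dup-THC, where it called 7.71%, 7.01% and 6.02% of genes in the same order. It called Gch1 in the interaction, with 5.27% of genes, and no member in WT-THC or 16p11dup-Veh against WT-Veh, with 4.9% and 3.36%. edgeR called no member. The DESeq2 and edgeR fold changes of Gch1 set a group without any count against the others and have no interpretable size. Nothing is read from the calls of any of the 3 tools, because the members were chosen with these differences known.

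**Figure D3:**
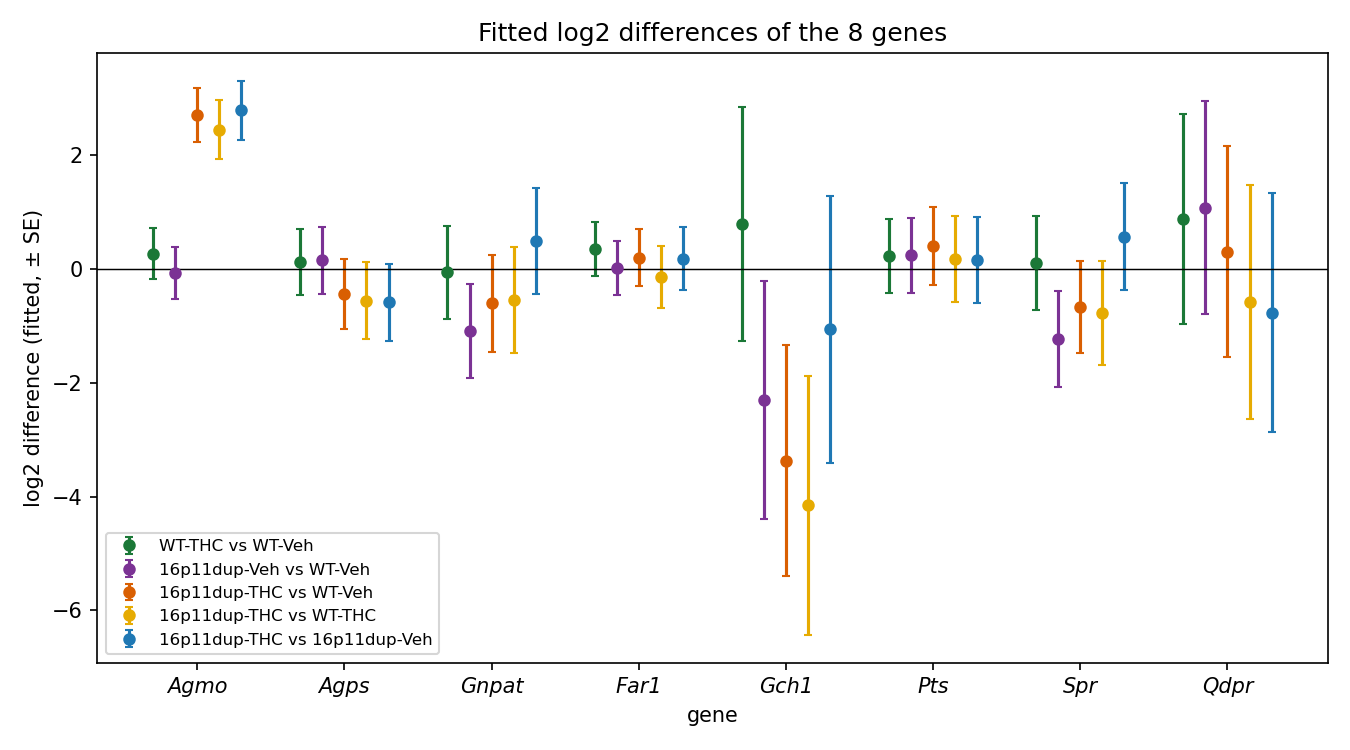
Points give the fitted log2 difference (vertical axis, ± SE) of each gene (horizontal axis) in 5 comparisons, distinguished by colour. For Agmo the 3 comparisons of 16p11dup-THC lie between 2.44 and 2.79 and the other 2 near 0, while the error bars of Gch1 and Qdpr reach 2.34 and 2.10.

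The 8 members did not move together across libraries. Over the 18 libraries, which share an amplified low-input preparation, Pearson's r of log2 CPM between Agmo and the other 7 lay between -0.33 for Agps and 0.11 for Pts. Among the 28 pairs the highest r was 0.55, for Far1 and Qdpr (Spearman's rho 0.63), both of which were highest in the same WT-THC library, replicate 8. The lowest was -0.46, for Gnpat and Pts (rho -0.27). These values are descriptions across libraries and carry no test.

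Among 3301 other genes with a count in every library and a mean log2 CPM of at least 5, the pattern most like Agmo over the 18 libraries was that of Psenen, which encodes a subunit of γ-secretase, with r = 0.76 and rho = 0.80. It was followed by Rev3l, the catalytic subunit of DNA polymerase ζ (r = 0.70), Zcchc2 (r = 0.70), Cdan1, the codanin-1 gene (r = 0.67), and Tlr2, the Toll-like receptor for bacterial lipoproteins (r = 0.65). Leaving out 1 library at a time kept the r of Psenen between 0.70 and 0.83. Within the 14 libraries outside 16p11dup-THC, r with Agmo was 0.52 for Psenen, 0.66 for Rev3l, 0.47 for Zcchc2, 0.82 for Cdan1 and 0.35 for Tlr2. Mean log2 CPM of Psenen was 8.42 in 16p11dup-THC and 5.81 in the other libraries. The least like were Smox, the spermine oxidase gene (r = -0.76), Upf1, a helicase of nonsense-mediated decay (r = -0.73), and Wdr81 (r = -0.71). The ranking was loose, since 3 of the 5 genes most like Agmo remained with Spearman's rho and 2 to 5 of them when 1 library was left out. These genes are the extremes of 3301 values of r, some of which would be expected to be large for unrelated genes. The ranking also includes the 16p11dup-THC libraries, in which the Agmo difference was already known. No relation to Agmo is read from it.

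Other genes of the same pathways were taken from 4 lists, each tested with limma in the 5 pairwise comparisons and the interaction. None of the 31 list genes with a count passed an FDR of 0.10. In the list of 10 other ether lipid synthesis genes, 1 gene was higher at an unadjusted p under 0.05 in WT-THC and 1 in 16p11dup-THC against WT-Veh, 1 was lower in 16p11dup-Veh, and none passed in the other 2 comparisons. In the list of 14 genes of ether lipid breakdown and platelet-activating factor, 0 or 1 was higher and 0 to 2 were lower in each comparison. Among 6 other tetrahydrobiopterin genes, 1 was higher in 16p11dup-Veh and 1 was lower in 16p11dup-THC, both against WT-Veh. For 16p11dup-THC against WT-Veh the median log2 fold changes of these 3 lists were 0.23, 0.07 and 1.17, beside -0.10 over all genes with a count. Of other enzymes that use tetrahydrobiopterin, Nos1, Nos3, Th, Tph1 and Tph2 had no count in any library and Nos2, the inducible nitric oxide synthase, had 1 count in 1 WT-Veh library.

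Lpcat2, which makes platelet-activating factor from its lyso form, was the most abundant of these genes, at 932.5 ± 538.7 CPM (SD, n = 6) in WT-Veh and 918.4 ± 194.7 CPM (SD, n = 4) in 16p11dup-THC. Its level was 1103 ± 347.0 CPM in WT-THC and 724.4 ± 88.1 CPM in 16p11dup-Veh (SD, n = 4 each). The log2 fold change between 16p11dup-THC and WT-Veh was 0.13 (SE 0.30, limma FDR = 0.826). Etnk1, an ethanolamine kinase, was the most abundant of the other ether lipid synthesis genes, with group means between 150.8 and 249.0 CPM.

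Tmem86b, which encodes a lysoplasmalogenase that hydrolyses the vinyl ether bond of lysoplasmalogens, was nearly absent from 16p11dup-THC. Its 4 libraries held 0, 1, 0 and 1 counts. The 16p11dup-Veh libraries had 110, 302, 2557 and 25 counts, the WT-THC libraries 2, 3, 148 and 57, and the WT-Veh libraries 5 to 537. In CPM the 16p11dup-THC libraries lay below the other 14, at 0 to 0.109 against 0.147 to 352.2 CPM, as they did for 3 of 13964 genes, or 0.0215%. Some of so many genes would be expected to do so for any 4 libraries, so this share is no measure of rarity either. From the summed counts the level in 16p11dup-Veh was 1332 times that in 16p11dup-THC, with a 95% exact interval of 368.4 to 11000 that covers counting error only. Without replicate 14 of 16p11dup-Veh the ratio was 233.7 (64.3 to 1936). The level in WT-Veh was 263.1 times that in 16p11dup-THC, or 110.4 times without replicate 2, and the level in WT-THC was 90.4 times, or 32.1 times (8.52 to 271.1) without replicate 9. The limma FDR was 0.8294 for 16p11dup-THC against 16p11dup-Veh (log2 fold change -8.19, SE 1.86), whereas edgeR gave an FDR of 0.0227 and DESeq2 4.21e-08. Against WT-Veh the FDR was 0.803 with limma, 0.207 with edgeR and 1.6e-05 with DESeq2, and against WT-THC it was 0.965, 0.887 and 0.00895. The fitted size depends on the counts added to these near-empty libraries.

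Of the remaining list genes at an unadjusted p under 0.05, Chpt1, a choline phosphotransferase, had 17.5, 18.7, 46.2 and 138.9 CPM in 16p11dup-THC and 0 to 20.8 CPM in WT-Veh (log2 fold change 4.98, SE 1.61, limma FDR = 0.803). Lpcat1, a lysophospholipid acyltransferase, had 34.04, 27.5, 207.9 and 80.0 CPM in 16p11dup-Veh and 0.123 to 31.5 CPM in WT-Veh (3.37, SE 1.37, FDR = 0.982). Cbr1, a carbonyl reductase and the most abundant of the other tetrahydrobiopterin genes, had 10.6 to 79.8 CPM in 16p11dup-Veh and 0 to 45.4 CPM in WT-Veh (4.49, SE 1.86, FDR = 0.982). Each of these pairs of ranges overlapped. Ept1, an ethanolamine phosphotransferase now also named Selenoi, had 34.7 to 421.9 CPM in WT-THC and 0.259 to 125.1 CPM in WT-Veh (3.70, SE 1.70, FDR = 0.744). Pex7, the receptor that imports AGPS into peroxisomes, had 0.0794 to 15.7 CPM in 16p11dup-Veh and 1.85 to 104.5 CPM in WT-Veh (-2.90, SE 1.25, FDR = 0.982). Akr1b3, an aldose reductase that can act in tetrahydrobiopterin synthesis, had a count in 1 of 4 16p11dup-THC libraries and in 5 of 6 WT-Veh libraries (-4.76, SE 2.21, FDR = 0.803). The counts of Akr1b3 were not whole numbers, so its reads were shared with other genes and its values are uncertain. Pafah2, a platelet-activating factor acetylhydrolase, had 4 to 53 counts in 4 WT-Veh libraries, 71 counts in 1 WT-THC library and none in the 8 libraries of 16p11dup mice. Its log2 fold change was -2.88 (SE 1.24, FDR = 0.803) for 16p11dup-THC and -3.10 (SE 1.303, FDR = 0.982) for 16p11dup-Veh, each against WT-Veh. How many genes of so low a level lack counts in the same 8 libraries was not counted, and nothing is read from this pattern.

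**Figure D4:**
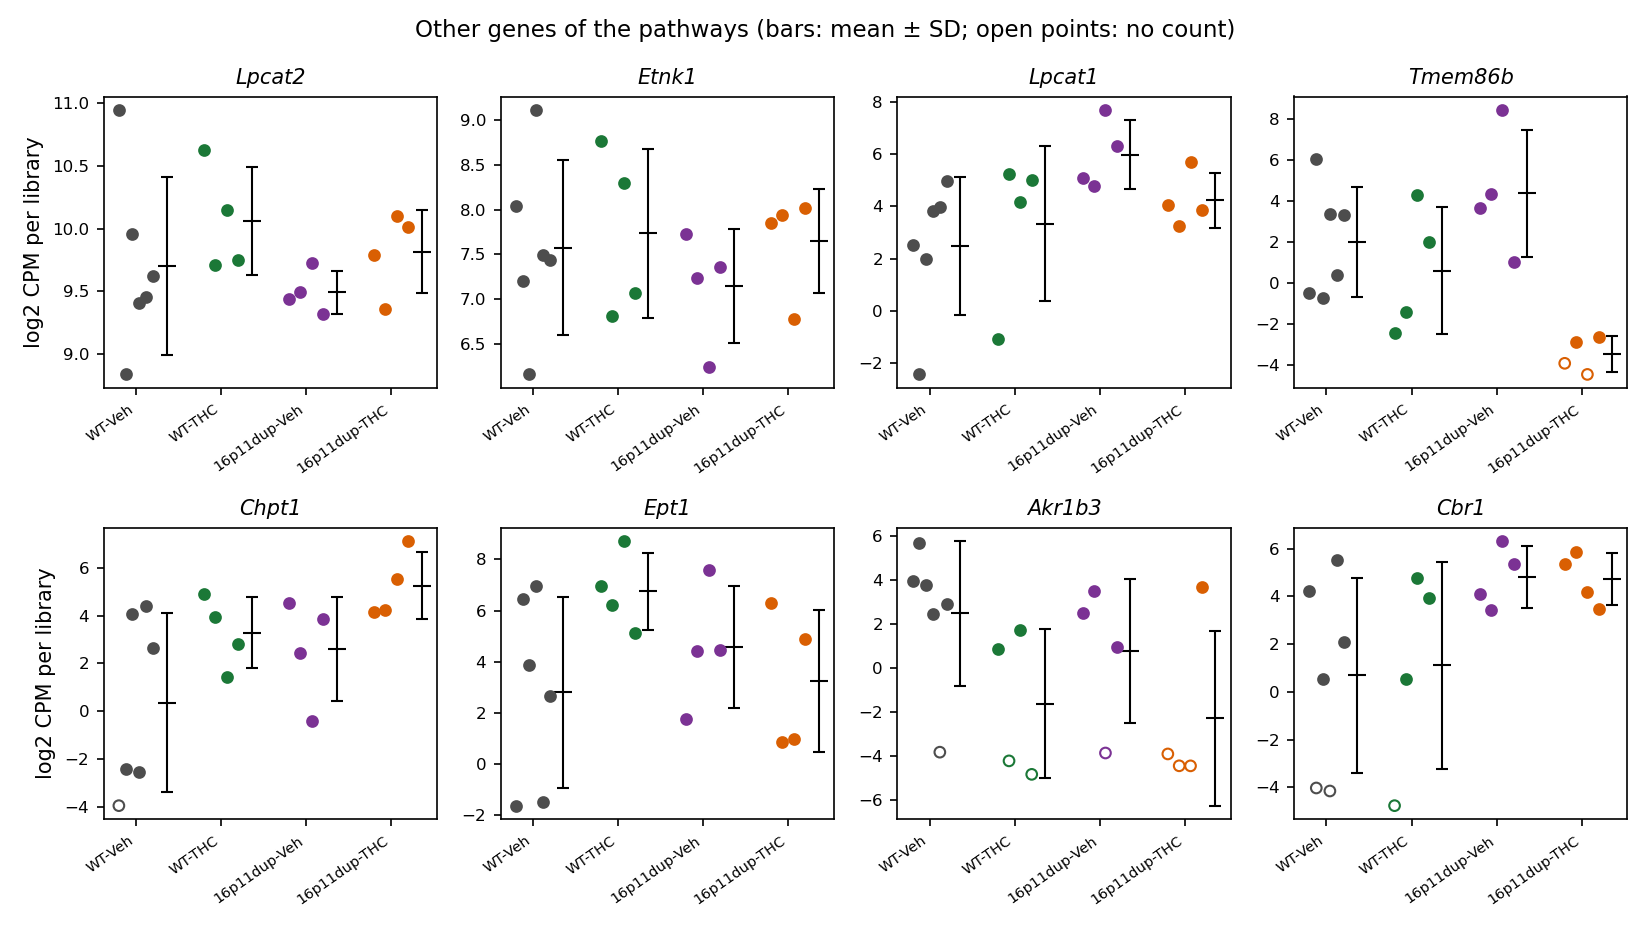
Points give the log2 CPM (vertical axis) of 8 other genes of the pathways in each library, by group, with the mean ± SD beside them and open points for libraries without a count. The 16p11dup-THC points of Tmem86b lie below the other 14, at 0 to 0.109 CPM, while the groups overlap for the other 7 genes drawn.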

How the data were processed

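RNA of FACS-isolated mPFC microglia was sequenced in 18 libraries, and groups were taken from the deposited sample labels. The 4 libraries that the authors removed as outliers were not analysed here. RSEM 1.3.0 was used by the authors to align reads to GRCm38 and to count them, ignoring strand. Smart-seq2 and a Nugen Ovation kit for low input are both named as the library protocol. The deposited log2 CPM are voom values, in which the authors added 0.5 to each count and divided by a scaled library size. Expected counts were recovered from them in steps of 0.01, and 94.4% of the non-zero ones were whole within 0.01. Counts of reads per library, the fraction of reads mapped, on exons and on introns, and 5 surrogate variable scores are used as deposited.

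The members and lists were chosen with earlier results of these data known. limma 3.58.1 was fitted to the log2 CPM of 18 libraries with group and percentage mapped, using voom weights computed without the design, eBayes moderation and 2-sided tests. p-values were adjusted by Benjamini-Hochberg over 22428 genes. As alternatives, rounded counts were tested with edgeR 4.0.16 and DESeq2 1.42.0, and the fit was repeated with other weights, covariates, filters, offsets and scalings, and each library left out. Each of the 3 tools was first checked on simulated data. Named list genes had an unadjusted p under 0.05 in a pairwise comparison, at most 4 per list and comparison, or were the most abundant of their list. Some genes of the lists are not reported here. Genes like Agmo were the 5 with the highest and the 3 with the lowest r. R 4.3.3, Python 3.11.15 and matplotlib 3.10.9 were used.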

Additional observations from a re-analysis of the deposited data

Results flagged for a closer look

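In 3 of 32 sets of log2 CPM values, each of 1 member in 1 group, the highest library lay far from the rest by Dixon's criterion, which chance meets in about 1 of 20 sets. Agps stood at 10.54 in WT-Veh replicate 2, with the other 5 libraries between 6.83 and 7.84. Pts stood at 9.97 in 16p11dup-THC replicate 17, with the other 3 between 5.57 and 6.22. Gch1 stood at 2.65 in 16p11dup-Veh replicate 13, where the other 3 libraries had no count and differ in value by library size alone. The criterion carries no information for that set. The 32 sets also include others without a count in most libraries, as of Gch1 in 16p11dup-THC and of Spr in both 16p11dup groups. The number of flagged sets is therefore not compared with chance. The 4 Agmo groups held no such library.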

How the results depend on the processing

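The Agmo difference between 16p11dup-THC and each of the other 3 groups was above 0 in 29 of 29 alternatives, at 2.40 to 3.03 on the log2 scale against WT-Veh, 2.10 to 3.06 against WT-THC and 2.45 to 3.19 against 16p11dup-Veh. Leaving out 1 library gave 2.40 to 3.03, 2.10 to 3.06 and 2.45 to 3.09, with the lowest values without 16p11dup-THC replicate 18. The gap between the lowest 16p11dup-THC and the highest other Agmo library was 0.18 to 1.20 over 20 alternatives. In 18 of these 1 library was left out, which can only keep or widen the gap (0.47 to 1.20), so they could not have closed it. The others, with 2 counts added or with library totals without the scaling factor, could have done so. Their lowest gap was 0.18. The Agmo difference between WT-THC and WT-Veh became -0.24 with 5 surrogate variables and lay between -0.23, without WT-THC replicate 9, and 0.58 with 1 library left out. That between 16p11dup-Veh and WT-Veh ranged from -0.34 to 0.24 over 29 alternatives, and from -0.26 to 0.24 with 1 library left out. The interaction became 3.18 with 5 surrogate variables and lay between 2.13 and 3.20 with 1 library left out. Its unadjusted p was under 0.05 in 24 of 28 alternatives. It was not with edgeR, without weights, or with the filters on a count in 4 libraries or on a mean log2 CPM of 5.

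The count of members at an FDR under 0.10 rose from 0 to 2 with DESeq2 in each comparison of 16p11dup-THC, and to 1 in the interaction. It rose to 1, Agmo, against WT-Veh with voom weights computed with the design, where 4 genes of all were called, and was 0 to 1 with 1 library left out, the 1 without WT-THC replicate 9. In the other comparisons it was 0 to 0 with 1 library left out. The causes were not tested, and nothing is read from these counts of members. Values moved by more than the residual spread in 28 of 167 alternatives for Gch1 and in 28 of 167 for Qdpr, which have libraries without a count, and in 0 of 173 for Agps. No filtered fit on a mean log2 CPM of 5 gave values for Gch1, Spr and Qdpr. No paired analysis was made, because the sample labels used here match no library with a library of another group. A floor of 3 counts corresponds to 0.155 to 0.424 CPM, and Gch1, Spr and Qdpr had libraries without a count in the same groups as libraries with up to 367, 28 and 408 counts.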
